A study of Zea mays with 4 samples.

Results

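The 50 most abundant Zm00001d gene IDs of a maize (Zea mays) seedling RNA table took 64.5% to 68.3% of all counts in each of the 4 libraries measured. They were chosen from 22084 IDs of that name, in a table of 22525 IDs, by their mean CPM (the count divided by the library total and scaled to 1e+06) over all 4 libraries. Their abundance is therefore a description and not a finding, and an ID could enter by being high in 1 genotype or in part of the libraries alone. Another 19 IDs with other names, such as symbols of plastid genes, were at least as abundant as the last of the 50. All 50 passed the filter on low counts. No table used here gives a name, a function or a position to a Zm00001d ID, and they are therefore described by ID, level and behaviour.

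The material was whole V3 seedlings with roots and shoots pooled, raised under greenhouse light for 14 h and darkness for 10 h per day. The groups were B73, the inbred on whose genome the maize reference is built, and seedlings labelled A188xB73, called the hybrid here. The labels also call them HiII, a name known for maize stocks used in transformation. No generation of this cross is assumed. Each genotype had 1 library with the code RPI10 and 1 with the code RPI11, and the labels used here do not say what the codes mark or whether the libraries came from separate plants. P-values therefore measure only the spread between these libraries, which may be technical.

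The assay was a modified CEL-Seq2, a 3′-end method that captures polyadenylated RNA and amplifies it by in vitro transcription. A library of this kind is a fixed pool of counts, and a transcript that takes a larger share leaves a smaller share for all others. Scaling methods such as the trimmed mean of M-values (TMM) set the level of a typical gene equal between libraries, and their outcome depends on which genes count as typical. In bulk seedlings, a difference in cell composition and a difference in RNA per cell cannot be told apart.

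The hybrid was sequenced more deeply than B73. Totals were 275271 (RPI10) and 403858 (RPI11) for B73, against 1341976 and 883812 for the hybrid. Counts of the 50 IDs ran from 68 to 92576 in the B73 libraries and from 7 to 379544 in the hybrid libraries, and all but Zm00001d048618 had more than 50 counts in every library. The median tested ID had 8 counts in B73 RPI10 and 25 in hybrid RPI10. Counts of psbB, a plastid photosynthesis gene of green tissue, were 378 to 972 in the 4 libraries; root markers were not tested.

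Together the 50 IDs took 64.5% of counts in B73 RPI10 and 66.9% in B73 RPI11. In the hybrid they took 64.9% with RPI10 and 68.3% with RPI11. The genotypes overlapped, and the mean of 66.6% ± 2.40 in the hybrid differed from 65.7% ± 1.66 in B73 (SD, n = 2 libraries) by 0.884 percentage points, less than the spread within a genotype. In both genotypes the RPI11 library had the larger share. As a share of Zm00001d counts alone, the class they were chosen from, they took 73.6% and 74.4% in B73 and 78.6% and 79.3% in the hybrid. On that denominator the genotypes did not overlap, and the mean was 4.99 percentage points higher in the hybrid. In the shallowest library the 95% Wilson interval of the share was 64.3% to 64.7%, which covers counting error only.

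**Figure D1:**
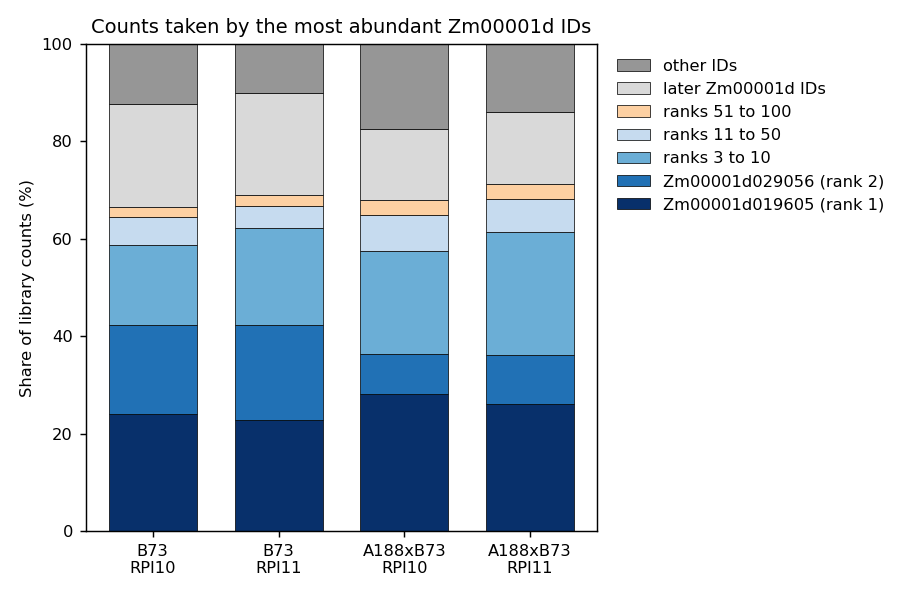
Share of each library's counts (percent) taken by abundance classes of IDs, stacked, in 2 B73 and 2 A188xB73 libraries. The 50 IDs (all blue segments) reach 64.5% to 68.3% in each library, while Zm00001d029056 takes 18.4% and 19.4% in B73 and 8.06% and 10.0% in the hybrid.

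The shares of all counts held large and opposite differences among the members. Of the 50, 37 had a larger mean share in the hybrid, with a summed gain of 13.2 percentage points, and 13 had a smaller one, with a summed difference of -12.3 points. Zm00001d029056 alone accounted for -9.89 points of it, and the IDs ranked 3 to 5 for 6.06 points of the gain. The leading pair together held 42.4% ± 0.0349 of B73 counts and 36.2% ± 0.137 of hybrid counts (SD, n = 2), a difference that was not tested. The remaining IDs of the table thus divided 57.6% of B73 counts and 63.8% of hybrid counts, a ratio of 0.15 on the log2 scale.

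Zm00001d019605 was the most abundant ID in every library. It took 23.99% and 22.9% of counts in B73 (RPI10, RPI11) and 28.3% and 26.1% in the hybrid. Both hybrid libraries lay above both B73 libraries. The TMM-scale log2 fold change, hybrid over B73, was 0.94 (SE 0.37, edgeR quasi-likelihood adjusted p = 0.0511). With totals of the tested IDs as library sizes it was 0.16 (edgeR adjusted p = 0.727).

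Zm00001d029056 was second in every library, with 18.4% and 19.4% of counts in B73 and 8.06% and 10.0% in the hybrid. Both hybrid libraries were below both B73 libraries, at less than 11% against more than 18%. With TMM the log2 fold change was -0.35 (SE 0.37, edgeR adjusted p = 0.457), and with totals of the tested IDs -1.12 (SE 0.37, edgeR adjusted p = 0.0155).

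The ratio of these 2 IDs within a library needs no scaling. Zm00001d019605 had 1.30 and 1.18 times the counts of Zm00001d029056 in B73 RPI10 and RPI11, and 3.51 and 2.61 times in the hybrid. The genotypes did not overlap. The log2 ratio averaged 0.31 ± 0.10 over the B73 libraries and 1.60 ± 0.30 over those of the hybrid (SD, n = 2), and the exact two-sided permutation test gave p = 0.3333, the smallest that 2 libraries against 2 allow.

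The IDs ranked 3 to 5 had larger shares in both hybrid libraries than in either B73 library. Zm00001d006402, the most abundant of them, took 3.16% and 4.35% of counts in B73 and 5.13% and 6.79% in the hybrid. Zm00001d000279 took 2.80% and 3.82% in B73 and 4.62% and 6.09% in the hybrid. Zm00001d045698 took 2.14% and 3.03% in B73 and 3.72% and 5.07% in the hybrid. In all 3 the order of the libraries was the same, lowest in B73 RPI10 and highest in hybrid RPI11, and the genotypes did not overlap. Their TMM-scale log2 fold changes were 1.38, 1.41 and 1.48, each past the threshold (edgeR adjusted p = 0.0108, 0.00962 and 0.00803). With totals of the tested IDs they were 0.61, 0.64 and 0.71 and none passed (edgeR adjusted p = 0.177, 0.158 and 0.123). Leaving out B73 RPI10 or B73 RPI11 also ended all 3 calls, at edgeR adjusted p of 0.239 to 0.282 and 0.0976 to 0.133.

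The counts of these 3 IDs stayed in nearly constant ratio across libraries. Zm00001d006402 had 1.11 to 1.14 times the counts of Zm00001d000279, and Zm00001d000279 had 1.20 to 1.31 times those of Zm00001d045698. In a search over IDs that reached 100 counts in each library, the closest profile to Zm00001d000279 belonged to GRMZM5G815453, an ID in the style of earlier maize gene models, at a ratio of 1.004 to 1.015. They are uncertain as separate measurements, since the treatment of reads that match several IDs is not given in the sources used here.

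Of the other IDs among the first 10, only Zm00001d000277 passed the threshold between genotypes on the TMM scale. Zm00001d000270 held 28219 and 28309 CPM of the total in B73 and 32984 and 29501 in the hybrid. Its highest value was 1.17 times its lowest, the narrowest range of the 50. Its counts followed those of Zm00001d019605, which were 8.10 to 8.85 times as many. The log2 fold change with TMM was 0.87 (SE 0.37, edgeR adjusted p = 0.0661).

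Zm00001d000277 had 13699 and 20024 CPM of the total in B73 and 18038 and 22602 in the hybrid, so the genotypes overlapped on that scale. It passed the threshold narrowly on the TMM scale, at a log2 fold change of 0.99 (edgeR adjusted p = 0.0498). With totals of the tested IDs it did not (0.21, edgeR adjusted p = 0.652), nor without B73 RPI10, B73 RPI11 or hybrid RPI11 (edgeR adjusted p = 0.4998, 0.226 and 0.0896). Zm00001d050687 also overlapped, with 4232 and 6938 CPM in B73 and 4268 and 6493 in the hybrid, and its TMM-scale log2 fold change of 0.66 did not pass (edgeR adjusted p = 0.195).

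Zm00001d001139 had 15018 and 24650 CPM of the total in B73 and 6981 and 10092 in the hybrid, below B73 in both libraries. Its log2 fold change was -0.50 with TMM (edgeR adjusted p = 0.317) and -1.27 with totals of the tested IDs (edgeR adjusted p = 0.0127). Zm00001d031168, ranked outside the first 10, was also below B73 in both libraries, at 2078 and 2486 CPM in B73 and 842.0 and 956.1 in the hybrid. Its log2 fold change was -0.62 with TMM (edgeR adjusted p = 0.177) and -1.40 with totals of the tested IDs (edgeR adjusted p = 0.00536). It was picked for description after its values were seen.

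**Figure D2:**
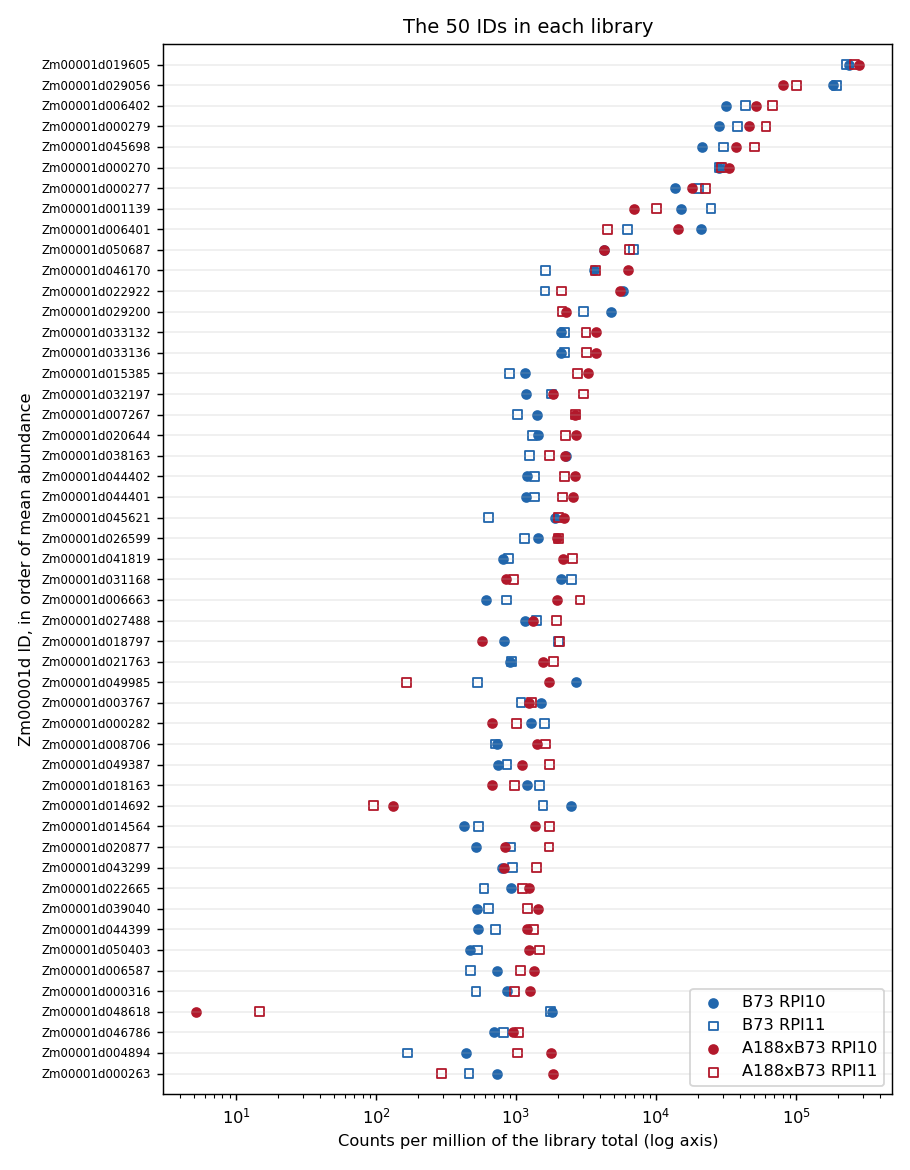
CPM of the library total (log axis) of each of the 50 IDs in order of mean abundance, with filled circles for RPI10, open squares for RPI11, blue for B73 and red for A188xB73. Most IDs lie within a few-fold over the 4 libraries, and Zm00001d048618 spans from 5.22 CPM in hybrid RPI10 to 1795 CPM in B73 RPI10.

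Tested over the whole table on the TMM scale, 32 of the 50 IDs were higher in the hybrid, 2 were lower and 16 did not pass the threshold (edgeR quasi-likelihood test, Benjamini-Hochberg adjusted p under 0.05 over 3282 IDs). Of all tested IDs, 25.3% were called higher and 25.4% lower. The median log2 fold change of the 50 was 1.40, against -0.04 for all tested IDs. Of the 32 higher IDs, 31 were past 2-fold and 6 past 4-fold. The 32 had ratios above 1 in both codes, and both lower IDs had ratios below 1 in both. The calls were made from these same libraries, so this describes the calls and is no separate evidence for them. Leaving out either B73 library lowered the number of higher calls, both among the 50 and over all tested IDs. In those fits a genotype with 1 library is assumed to vary like the other. Of the 50, 37 were among the first 50 Zm00001d IDs of both genotypes, and of these 26 were higher and 0 lower. The 7 that were in the hybrid's first 50 alone held 6 of the higher calls, and the 6 in B73's first 50 alone held both lower calls. For those 13 the choice of members bears on the direction.

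A surplus of higher over lower calls was also counted at the next ranks. In the next 50 Zm00001d IDs, 34 were higher and 1 lower in the hybrid, and their median log2 fold change was 1.48. In the 400 IDs after those, 187 were higher and 71 lower, with a median of 0.95. Among the 2638 tested Zm00001d IDs after rank 500, 527 were higher and 724 lower, and the median was -0.25. On library totals, ranks 51 to 100 took 2.13% ± 0.0149 of B73 counts and 3.09% ± 0.0530 of hybrid counts, whereas all Zm00001d IDs after rank 100 took 20.98% ± 0.0913 and 14.7% ± 0.130 (SD, n = 2).

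**Figure D3:**
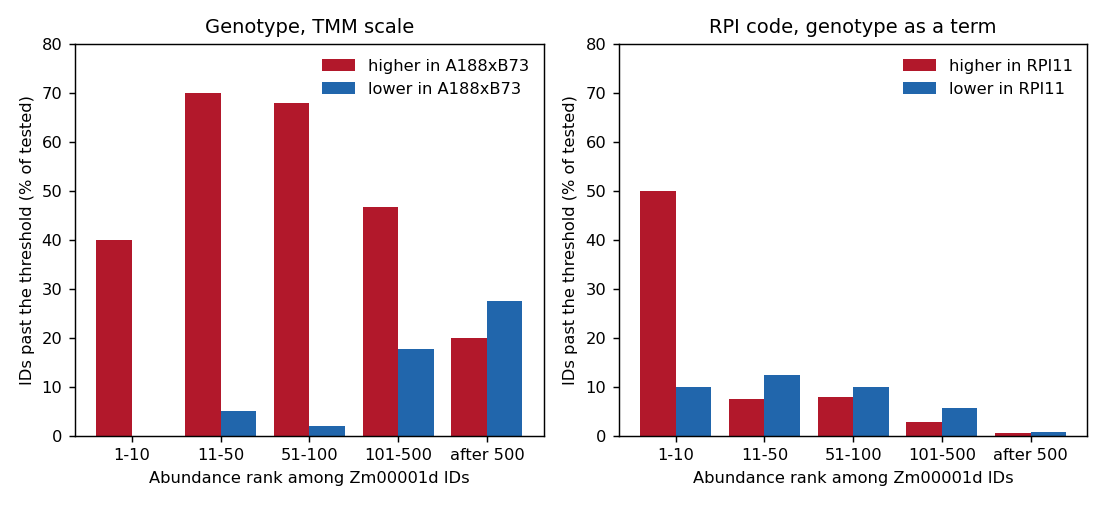
Percent of tested Zm00001d IDs past the threshold (edgeR adjusted p under 0.05) by abundance rank, for A188xB73 against B73 on the TMM scale (left) and RPI11 against RPI10 with genotype as a term (right), with red bars for higher and blue for lower. Ranks 11 to 50 have 70% higher and 5% lower in the hybrid, and IDs after rank 500 have 19.98% and 27.4%.

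The number of the 50 called in each direction changed with the scaling. The mean TMM factor of B73 was 1.31 ± 0.0281 and that of the hybrid 0.763 ± 0.0246 (SD, n = 2), which moved hybrid to B73 ratios up by 0.78 on the log2 scale relative to totals of the tested IDs and by 0.72 relative to library totals. With totals of the tested IDs, 11 of the 50 were higher and 5 lower (edgeR), where 13.7% and 42.6% of all tested IDs were called, and the median log2 fold change of the 50 was 0.61. Upper-quartile scaling gave 28 higher and 3 lower, against 20.1% and 31.7% of all tested IDs. On CPM of the total, without a model, both hybrid libraries lay above both B73 libraries for 30 of the 50 and below for 8, against 23.8% and 54.7% of all tested IDs. The same counts on the TMM scale were 37 and 4, against 35.8% and 40.7%.

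The 50 IDs did not enter the TMM averages. TMM discards the most abundant 5% of the IDs compared and the outer 30% of log ratios on each side before it averages. In the 3 comparisons with the reference library, 49 or 50 of the 50 were discarded as too abundant, and 0 entered the average in any of them. Computing TMM after removing all 50 from the table moved the log2 ratio of effective sizes, hybrid over B73, from -0.72 to -0.76. It gave 34 higher and 2 lower among the 50, against 25.8% and 24.5% of all tested IDs. Removing the 50 from library totals gave a ratio of -0.04, beside 0.06 for totals of the tested IDs. It gave 15 higher and 5 lower among the 50, against 15.2% and 40.6% of all tested IDs.

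The factors moved with the abundance of the IDs averaged, a pattern examined after the data were seen. The log2 ratio of effective sizes was -1.04 when no filter was applied and -0.72 with the filter reported. It was -0.44 from the 2087 tested IDs with a mean of at least 20 CPM, 0.06 from the 749 with at least 50 CPM, 0.44 from the 367 with at least 100 CPM and 0.60 from the 196 with at least 200 CPM. From these 4 sets in turn, edgeR called 28, 10, 6 and 5 of the 50 higher, and 2, 5, 8 and 9 lower. Of all 3282 tested IDs, it called 684, 462, 302 and 261 higher, and 1010, 1410, 1685 and 1798 lower. When all libraries were drawn at random to 275271 counts, 1447 IDs were tested and TMM gave a ratio of -0.17, with 19 higher and 5 lower among the 50 (edgeR), where 22.2% and 31.9% of those tested were called. The draw changed both the depth and the IDs tested. TMM from the same 1447 IDs at full counts gave -0.38, with 27 higher and 3 lower, beside 649 and 1065 of all 3282 tested IDs.

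**Figure D4:**
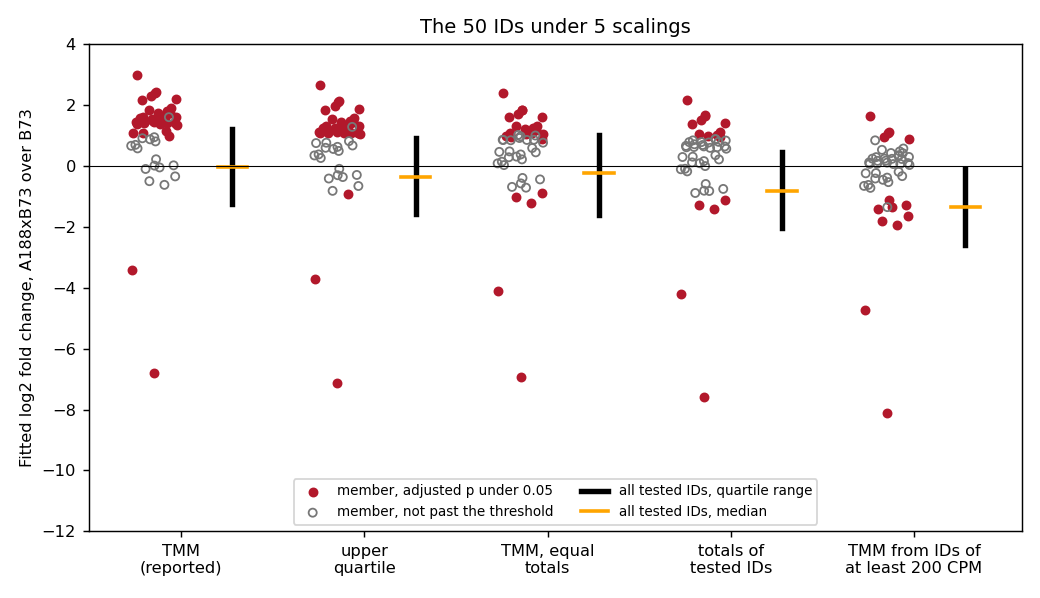
Fitted log2 fold change, A188xB73 over B73, of each of the 50 IDs (points, red where the edgeR adjusted p was under 0.05) under 5 scalings, beside the median and quartile range of all tested IDs. The points shift together from scaling to scaling, from a median of 1.40 with TMM to 0.07 with TMM from IDs of at least 200 CPM.

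A scaling shifts all IDs nearly alike and so leaves the distance between the 50 and the table in place. That distance, between the median log2 fold change of the 50 and that of all tested IDs, was 1.44 at full counts with TMM. In the draw to equal totals, where fewer IDs were tested, it was 1.0997, from medians of 0.85 and -0.25. Over 13 scalings, the draw to equal totals included, 29 of the 50 had a log2 fold change above 0 in each and 6 had one below 0 in each. The sign changed in the other 15, and no member was called higher under one scaling and lower under another. The same counts over all tested IDs are not given here, so these numbers do not set the 50 apart from the table.

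Under all 13 scalings the same 5 of the 50 IDs were called higher and the same 2 lower by edgeR, again without a count over all tested IDs. Since scalings shift IDs nearly alike, these are by construction among the largest TMM-scale changes. Zm00001d004894, the highest of them, had 435.9 and 168.4 CPM of the total in B73 and 1780 and 1031 in the hybrid, without overlap. It was ranked 108 in B73 and 32 in the hybrid and thus entered the 50 through the hybrid. Its TMM-scale log2 fold change of 2.97 (SE 0.51) is therefore a description and no independent test.

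Zm00001d006663 had 610.3 and 849.3 CPM of the total in B73 and 1975 and 2858 in the hybrid. Zm00001d014564 had 425.0 and 539.8 CPM in B73 and 1370 and 1744 in the hybrid. In both the lowest hybrid library was more than 2 times the highest B73 library. Their TMM-scale log2 fold changes were 2.44 (SE 0.41) and 2.41 (SE 0.40), and the lowest values over the 13 scalings were 1.12 and 1.09. For Zm00001d006663 the edgeR adjusted p was 0.000567, while Zm00001d014564, ranked 70 in B73 and 29 in the hybrid, also entered through the hybrid.

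Zm00001d015385 had 1159 and 893.9 CPM of the total in B73 and 3253 and 2761 in the hybrid. Zm00001d041819 had 806.5 and 879.0 CPM in B73 and 2151 and 2544 in the hybrid. Both were clear of overlap, at TMM-scale log2 fold changes of 2.28 (SE 0.39) and 2.20 (SE 0.38), with edgeR adjusted p of 0.000635 and 0.000698. Over the scalings their smallest values were 0.96 and 0.88, and the largest adjusted p was 0.0317 and 0.0492.

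Zm00001d048618 was the member most unlike between genotypes. It had 494 and 713 counts in B73 and 7 and 13 in the more deeply sequenced hybrid, or 1795 and 1765 CPM of the total against 5.22 and 14.7. It was among the first 20 IDs of B73 and at rank 2896 in the hybrid. It entered the 50 through B73 alone, so its TMM-scale log2 fold change of -6.81 (SE 0.56) is a description.

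Zm00001d014692 had 2478 and 1557 CPM of the total in B73 and 131.9 and 96.2 in the hybrid, ranks 17 and 266. It too entered through B73, with a log2 fold change of -3.41 (SE 0.44), a level 10.6-fold lower in the hybrid on the TMM scale. Over the lists, 37 of the 50 most abundant IDs of B73 were also among the 50 most abundant of the hybrid (74.0% of each list), and 7 of the members were outside the first 50 of B73 and 6 outside those of the hybrid.

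The smallest genotype differences on the TMM scale were those of Zm00001d049985, Zm00001d018163 and Zm00001d000282, at log2 fold changes of 0.01 (SE 0.84), 0.02 (SE 0.38) and -0.05 (SE 0.38), none past the threshold (edgeR adjusted p = 0.995, 0.977 and 0.921). Without hybrid RPI10 the first was -2.39. On CPM of the total, Zm00001d018163 had 1202 and 1466 in B73 and 667.7 and 976.5 in the hybrid, and both hybrid libraries were below both B73 libraries. Zm00001d000282 had 1275 and 1590 CPM in B73 and 672.1 and 1012 in the hybrid, likewise below. A TMM-scale difference near 0 thus went with a lower share of the total in the hybrid for these 2 IDs. Zm00001d049985, with the large SE, differed between codes.

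Between the codes, 14 of the 50 IDs passed the threshold when genotype was a term, 8 higher and 6 lower in RPI11 (edgeR adjusted p under 0.05 over 3282 IDs). That fit leaves 1 residual degree of freedom, so its p-values lean on the spread estimated across all tested IDs. Of all tested IDs, 3.29% did, 1.13% higher and 2.16% lower. In ranks 51 to 100 it was 4 higher and 5 lower of 50 (18.0%), in the 400 IDs after those it was 11 higher and 23 lower, and after rank 500 it was 1.33%. The median absolute log2 difference between codes was 0.41 for the 50 and 0.37 for all tested IDs. Without genotype in the model edgeR called 0 of all tested IDs, and 0 members were higher and 1 lower at an unadjusted p under 0.05. DESeq2 with genotype called 5 members higher and 5 lower, beside 12 and 23 of 1119 IDs tested. With at least 10 counts required in each library, all 14 calls ended: edgeR called 0 of the 49 members and 0 of all 970 IDs then tested. Of those members, 15 were higher and 7 lower at an unadjusted p under 0.05.

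**Figure D5:**
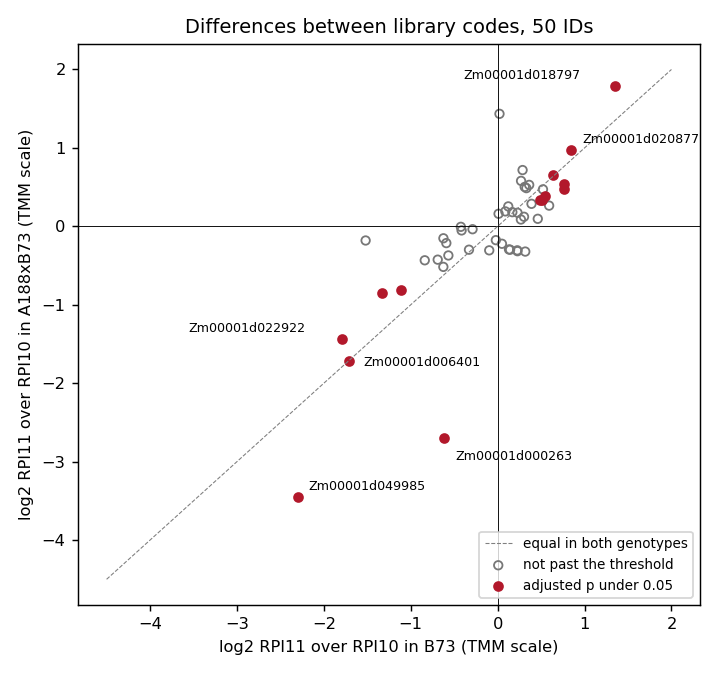
TMM-scale log2 ratio of RPI11 to RPI10 in B73 (horizontal) and in A188xB73 (vertical) for each of the 50 IDs, with red points for an edgeR adjusted p under 0.05 and a dashed line where both genotypes are equal. Zm00001d049985 is the lowest point in both genotypes and Zm00001d018797 the highest.

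The largest code difference belonged to Zm00001d049985. It had 2685 CPM of the total in B73 RPI10 and 527.4 in B73 RPI11, and 1730 and 165.2 in the hybrid. RPI11 was the lower library in both genotypes, with a log2 fold change of -2.87 (SE 0.24), 7.31-fold lower. Both RPI11 values lay below 829.2 CPM, the mean of the last member. Zm00001d049985 thus entered the 50 through RPI10, and this difference is a description. Its highest library was 16.3 times its lowest.

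Zm00001d006401 had 21001 CPM of the total in B73 RPI10 and 6210 in B73 RPI11, and 14234 and 4519 in the hybrid. The codes did not overlap, and the log2 fold change was -1.71 (SE 0.14, edgeR adjusted p = 3.19e-08). Its ID number is next to that of Zm00001d006402, yet Zm00001d006402 had 1.504 to 15.02 times its counts depending on the library. Zm00001d000263, the last member, had 726.6 and 460.6 CPM in B73 and 1835 and 294.2 in the hybrid. Its log2 fold change between codes was -1.71 (SE 0.32), with most of the difference in the hybrid pair. Only hybrid RPI10 lay above its mean of 829.2 CPM, the lowest mean of the 50. It thus entered through that library, and this difference is a description.

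In the other direction, Zm00001d018797 had 817.4 CPM of the total in B73 RPI10 and 2023 in B73 RPI11, and 568.6 and 2043 in the hybrid. Its code difference was 1.58 on the log2 scale (SE 0.19). Both RPI10 values lay below 829.2 CPM, the mean of the last member, so it entered through RPI11 and this is a description. Zm00001d020877 had 519.5 and 906.3 CPM in B73 and 836.8 and 1718 in the hybrid, a difference of 0.92 (SE 0.19). Its RPI10 values lay below that mean in B73 and close to it in the hybrid, so this too is a description. Zm00001d050687, with the levels given above, differed by 0.65 (SE 0.15, edgeR adjusted p = 0.0162). In all 3 the RPI11 library was the higher one in both genotypes. The group of Zm00001d006402, Zm00001d000279 and Zm00001d045698 was also higher in RPI11, by 0.42, 0.41 and 0.47 (edgeR adjusted p = 0.0308, 0.0375 and 0.0216).

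None of the 14 code calls changed direction between genotypes. The test looks for a code difference common to both genotypes, so that agreement was largely set by the calling. Over the 50 IDs, log2 code ratios in B73 and in the hybrid, which share no library, had a Pearson r of 0.795 and a Spearman rho of 0.7996. For log2 genotype ratios within RPI10 and within RPI11, r was 0.946 and rho 0.801. These are descriptions across IDs, which are not independent. By class, 25 IDs were called higher for genotype alone and 2 lower, 7 were called for both genotype and code, 7 for code alone and 9 for neither.

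Several members came in pairs or groups with almost the same counts. Zm00001d033132 and Zm00001d033136 had 578 and 573 counts in B73 RPI10, 900 and 900 in B73 RPI11, 4988 and 5001 in hybrid RPI10 and 2794 and 2795 in hybrid RPI11. They differed by at most 13 counts, where counting error of independent counts gives an SD of 99.9 for that difference. Zm00001d044402 and Zm00001d044401 had 327 and 326 counts in B73 RPI10, 544 and 543 in B73 RPI11, 3526 and 3433 in hybrid RPI10 and 1960 and 1894 in hybrid RPI11. Their ratio stayed between 1.002 and 1.035. In B73 they differed by 1 count in each library, where the SD from counting error is 25.6 and 33.0. In the hybrid they differed by 93 and 66 counts, more than the SD of 83.4 and 62.1.

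Zm00001d000282 had 351 and 642 counts in B73 and 902 and 894 in the hybrid, and its closest profile by the same search was that of psbB, a plastid gene for the CP47 core protein of photosystem II, with 378 and 687 counts in B73 and 972 and 959 in the hybrid. Their ratio stayed between 0.928 and 0.934. Of 1225 pairs of members, 7 kept their ratio within 1.1-fold over the 4 libraries, while the median pair varied 3.14-fold. Counting IDs linked by such pairs once left 43 units, with 27 higher and 2 lower in the hybrid on the TMM scale. Whether such IDs share reads was not tested.

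ID numbers also lay close together. Of the 50, 10 had another member within 5 ID numbers, against 2 of the IDs ranked 51 to 100. Closeness in number did not always go with like profiles, as for Zm00001d006402 and Zm00001d006401, and no table used here gives the positions of these IDs.

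At the edge of the rule, Zm00001d004894 and Zm00001d000263 were the last members, with a mean of 853.8 and 829.2 CPM of the total. Zm00001d019518 and Zm00001d003429, with 828.8 and 826.5 CPM, were the first IDs outside. Ranking by TMM-scaled CPM would have kept 48 of the 50 and ranking by summed raw counts 46.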

How the data were processed

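The deposited values are raw counts, 1 column per library. Per the labels' protocols, molecular identifiers were 10 bp and barcodes 6 bp long. The submitters' processing notes name HISAT2, UMI-tools and the build B73 RefGen_v4. The annotation, the counting tool, its strand setting and the treatment of reads matching several IDs are not given in the sources used here. Each column matched 1 sample by its labels.

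For the tests, edgeR 4.0.16 (R 4.3.3) was run on the counts (filterByExpr with a minimum count of 10, TMM, glmQLFit and glmQLFTest) over the whole table, with p-values adjusted by Benjamini-Hochberg and a threshold of 0.05. Library sizes were recomputed over the 3282 IDs kept. Genotype was tested as the only term, and the RPI code with genotype as a term. Standard errors are the absolute log2 fold change over the square root of F. Shares and CPM of the total use all 22525 IDs. Alternatives were other scalings and filters, random draws to equal totals, DESeq2 1.42.0, the code as a block and leaving out libraries; scaling by abundance range, by the total of the 50, and counting IDs in constant ratio once were added after seeing the data. The fits were tested on simulated data in which most IDs were unchanged and equal numbers changed in each direction. Such data do not test the choice of scaling. The named IDs were the 10 most abundant, the 5 largest calls per direction for genotype and 3 for code, the 3 smallest genotype differences and ranks 49 to 52. The members and lists were chosen with earlier results of these data known. No sequences were used.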

Additional observations from a re-analysis of the deposited data

Results flagged for a closer look

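On the TMM scale, 4 of the 50 IDs had genotype differences of opposite sign in the 2 codes, each with 1 library per genotype, and the difference between codes was not tested. The log2 ratio of hybrid to B73 went from -0.31 in RPI10 to 0.16 in RPI11 for Zm00001d029200 (a change of 0.47), from 0.14 to -1.004 for Zm00001d049985 (-1.15), from -0.15 to 0.02 for Zm00001d000282 (0.17) and from -0.07 to 0.08 for Zm00001d018163 (0.16). On CPM of the total all 4 were lower in the hybrid in both codes.

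Code differences were of opposite sign in the genotypes for 6 IDs, also untested. The log2 ratio of RPI11 to RPI10 went from 0.05 in B73 to -0.22 in the hybrid for Zm00001d000270 (a change of -0.27), from 0.13 to -0.29 for Zm00001d033132 (-0.43) and from 0.14 to -0.30 for Zm00001d033136 (-0.44). It went from 0.23 to -0.31 for Zm00001d044402 (-0.53), from 0.23 to -0.32 for Zm00001d044401 (-0.54) and from 0.32 to -0.32 for Zm00001d039040 (-0.64). On CPM of the total the signs were the same as these. Of the 6, 4 belong to the pairs with almost the same counts, and whether those share reads was not tested.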

How the results depend on the processing

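The log2 ratio of effective library sizes, hybrid over B73, was -0.72 with TMM, -0.78 with DESeq2 size factors in edgeR, -0.41 with the upper quartile, 0.0585 with totals of the tested IDs, -0.0387 with totals without the 50, -1.04 with no filter, -0.48 with at least 10 counts in every library, -0.17 at equal totals and 0.44 with TMM from IDs of at least 100 CPM. It ran from -0.91 to -0.69 when 1 library was left out. The 32 higher and 2 lower IDs became 11 and 5 with totals of the tested IDs, 15 and 5 with totals without the 50, 19 and 5 at equal totals, 11 and 5 with the total of the 50, and 6 and 8 with TMM from IDs of at least 100 CPM. With the total of the 50, 14.1% and 41.3% of all tested IDs were called higher and lower. The stricter filter of at least 10 counts per library gave 28 higher and 1 lower of 49 members, beside 216 and 210 of 970 IDs tested. Leaving out 1 library gave 9 to 34 higher and 2 to 3 lower. The 8 higher code calls became 5 with the upper quartile, beside 24 of all 3282 tested IDs, and 15 with totals without the 50, beside 100. They became 2 with no filter, beside 23 of 22374, and 5 with DESeq2, beside 12 of 1119. At equal totals 5 members were higher and 3 lower, beside 8 and 10 of 1447. The 8 higher and 6 lower code calls became 0 and 0 with at least 10 counts in every library (15 and 7 at an unadjusted p under 0.05 in edgeR). They also became 0 and 0 with genotype left out (0 and 1 unadjusted). In either fit, 0 of all tested IDs were called. The share of the 50 differed by 0.884 percentage points, by 4.99 over Zm00001d IDs alone and by -0.814 to 2.58 when 1 library was left out. The mean log2 ratio of the leading pair differed by 1.07 to 1.503 when 1 library was left out.

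With the RPI code as a block, 40 of the 50 IDs were higher and 5 lower, and these held all 34 calls made without it. Of all 3282 tested IDs, 970 were called higher and 900 lower with the block. Deviations of same-coded libraries had a correlation of 0.248 over all tested IDs. Over the 50, code ratios in B73 and in the hybrid had a Pearson r of 0.795. The spread that edgeR fitted over the tested IDs (its dispersion) fell from 0.0699 to 0.0230 once the code entered the model. Same-coded libraries thus had differences in common, but there were only 2 pairs. No label says what the code marks, and the cause was not tested. The block gave -0.39 for Zm00001d049985. With it, the leading pair passed the threshold, Zm00001d019605 at 0.94 (edgeR adjusted p = 9.29e-09) and Zm00001d029056 at -0.35 (edgeR adjusted p = 0.00297).

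Genotype log2 fold changes of 7 named IDs changed sign under the alternatives listed here, and the cause was not tested. With TMM from IDs of at least 200 CPM, 3 more did: Zm00001d019605 (-0.39), Zm00001d000270 (-0.46) and Zm00001d000277 (-0.34). For Zm00001d000282 they became 0.012 (DESeq2 size factors), 0.25 (no filter) and 0.17 (DESeq2). With totals of the tested IDs, totals without the 50, the upper quartile and equal totals, in this order, Zm00001d006401 had -0.60, -0.51, -0.10 and -0.40, Zm00001d018163 -0.76, -0.65, -0.30 and -0.44, and Zm00001d049985 -0.82, -0.74, -0.31 and -0.58. With the 2 totals, Zm00001d018797 had -0.18 and -0.0646, and Zm00001d050687 -0.11 and -0.0113. When 1 library was left out, the ranges were -0.13 to 2.55 for Zm00001d000263, -0.23 to 0.36 for Zm00001d000282, -0.71 to 1.31 for Zm00001d006401, -0.14 to 0.41 for Zm00001d018163, -0.43 to 1.38 for Zm00001d018797 and -2.39 to 1.57 for Zm00001d049985. The lowest of the last was that without hybrid RPI10. With at least 10 counts in every library, Zm00001d018163 had -0.24 and Zm00001d049985 -0.20. Over the alternatives planned for named IDs, 236 values kept direction and call, 32 changed sign, 28 gained a call and 25 lost one.

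The shallowest library had a median of 8 counts per tested ID, and whether depth limits the 50 less than other IDs was not tested.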
